A study of Mus musculus with 2 samples.

Results

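The Dlk1-Dio3 proximal microRNAs are the 10 microRNA loci Mir770, Mir673, Mir493, Mir337, Mir540, Mir665, Mir431, Mir433, Mir127 and Mir434, on the plus strand of mouse chromosome 12 around the genes Meg3 and Rtl1. They were taken by name from 1973 microRNA loci in the count tables, and all 10 had a row. The libraries were small-RNA libraries (size range under 30 bases) from facial prominence tissue of healthy B6NCrl embryos at day 11.5, with both sexes pooled. There was 1 group with 2 biological replicates, a pool from 109 embryos in replicate 1 and from 88 in replicate 2, and both pools carry the same donor entry. No treatment, mutant allele or second tissue is named in the labels, so no test between conditions exists and each value is given for both pools. Levels are CPM, sense counts scaled to a library total of 1e+06 over all loci. The totals were 1941745 for replicate 1 and 2319881 for replicate 2, which makes a single count worth 0.515 and 0.431 CPM. Intervals are 95% exact (Clopper-Pearson) binomial intervals and cover counting error only. The tissue was whole and pooled, so fewer cells of a type and less RNA per cell cannot be told apart.

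The Dlk1-Dio3 region is imprinted. The chromosome inherited from the father expresses the protein genes Dlk1, Rtl1 and Dio3, and the one inherited from the mother expresses long noncoding RNAs, Meg3 among them, together with the microRNAs. Rtl1 encodes a protein derived from a retrotransposon that is needed for the fetal capillaries of the placenta, and the microRNAs made from the opposite strand of Rtl1 match its transcript in full and are known to guide its cleavage. A microRNA hairpin can yield a mature product from either arm, 5p or 3p, and the seed, bases 2 to 8, leads the pairing with targets. The count tables give 1 value per locus and do not separate the arms, and they hold no counts for Rtl1, Dlk1 or Meg3.

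The sequences below, from RefSeq on GRCm38.p6, show the seeds in capitals. The products of the 4 loci opposite Rtl1 come first because these loci held most of the counts. Mir337 follows as the most abundant of the 10 loci that lie outside Rtl1. The last pair are the only products of the 10 loci whose seed also occurs in a product of another gene.
miR-431-5p: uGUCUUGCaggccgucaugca
miR-431-3p: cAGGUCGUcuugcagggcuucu
miR-127-5p: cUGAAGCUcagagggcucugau
miR-127-3p: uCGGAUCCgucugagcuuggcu
miR-433-5p: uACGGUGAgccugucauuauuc
miR-433-3p: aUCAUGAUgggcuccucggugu
miR-434-5p: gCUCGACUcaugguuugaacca
miR-434-3p: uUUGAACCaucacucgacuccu
miR-337-5p: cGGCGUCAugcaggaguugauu
miR-337-3p: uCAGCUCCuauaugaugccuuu
miR-540-3p: aGGUCAGAggucgauccugg
miR-673-5p: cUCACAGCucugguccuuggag

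All 10 loci matched the RefSeq table by symbol and position, with 20 mature products of 19 to 26 bases. The 20 seeds were all distinct, so no seed family joined any pair of the loci. Of these products, 18 had a seed found in no other mature name of the table, which holds 1679 names. The seed of miR-540-3p was shared with miR-6915-5p, and that of miR-673-5p with miR-6985-3p. Neither a mature product in full nor a run of 20 bases of any of the 10 hairpins occurred in another hairpin of the table. Hairpin GC content ran from 45.7% at Mir434 to 70.2% at Mir770.

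The 8 products of Mir431, Mir433, Mir127 and Mir434 each matched the Rtl1 transcript of GENCODE M21 in full, once, on the opposite strand. All 8 sites lay in its coding sequence, which spans positions 148 to 5379 of 6358 bases. The Rtl1 stretches opposite the 2 most abundant loci are given 5′ to 3′, with capitals at the bases that face the seed. The sites of Mir431 are at positions 5072 to 5092 (5p) and 5028 to 5049 (3p), and those of Mir127 at 2676 to 2697 (5p) and 2642 to 2663 (3p).
Rtl1 opposite miR-431-5p: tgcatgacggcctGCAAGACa
Rtl1 opposite miR-431-3p: agaagccctgcaagACGACCTg
Rtl1 opposite miR-127-5p: atcagagccctctgAGCTTCAg
Rtl1 opposite miR-127-3p: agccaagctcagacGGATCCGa
These matches describe the sequences, and cleavage of Rtl1 was not measured here.

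Marker microRNAs of the labelled tissue were detected. All 6 mesenchyme and smooth muscle loci listed, all 7 epithelial loci and the endothelial Mir126a were detected, with summed levels of 52433 and 55767 CPM, 33088 and 29540 CPM, and 39036 and 40425 CPM in replicates 1 and 2. Lists of other cell types were lower: the neural list summed to 2430 and 1947 CPM, led by Mir137, the leukocyte list to 553 and 662 CPM, led by Mir223, and the hepatocyte Mir122 stood at 16.0 and 44.0 CPM. The striated muscle list summed to 632 and 1498 CPM, led by Mir208b, and the erythroid list to 264 and 593 CPM, led by Mir451a. Of the loci with a row, 5 of 9 neural, 5 of 9 striated muscle, 2 of 2 erythroid and 2 of 3 leukocyte loci were detected. Mir124a-3, Mir133a-1, Mir133a-2 and Mir142b were at 0 sense counts in both libraries. The counts of loci with copies are incomplete, since reads placed at several positions are counted apart.

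All 10 loci were expressed in both pools. Each reached the detection minimum of 10 counts in both libraries, against 17.8% of the 1973 loci in the tables. The lowest count was 316, at Mir673 in replicate 1. Together they took 1.81% of all sense counts in replicate 1 (95% interval 1.79% to 1.83%) and 1.93% in replicate 2 (1.91% to 1.95%), or 18704 ± 849 CPM (SD, n = 2). These intervals did not overlap. Counts on the opposite strand were over 3 in both libraries at 1 of the 10 loci, Mir337, against 1.01% of all loci. Of the 10 loci, 6 stood at 1000 CPM or more in both pools, against 5.42% of all loci. The 10 loci were chosen with earlier results of these data known, and loci with few or no counts in the same stretch are not among them. The shares over all loci therefore give a scale and do not test whether the 10 stand out.

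The 4 loci opposite Rtl1 held most of these counts. Their share of the counts of the 10 loci was 79.2% in replicate 1 (95% interval 78.8% to 79.6%) and 79.9% in replicate 2 (79.5% to 80.3%). Mir431, a locus also studied in muscle regeneration, lies opposite the Rtl1 coding sequence at chr12:109590447-109590537. It had 12588 counts in replicate 1 and 18148 in replicate 2, or 6483 and 7823 CPM. It was the most abundant of the 10 in both pools and stood in place 40 of all loci by mean level. The level of Mir431, 7153 ± 948 CPM (SD, n = 2), was nearest to that of Mir92-1 (7326 ± 618 CPM) and Mir15a (7399 ± 326 CPM) above it and Mir151 (7096 ± 463 CPM) and Mir30a (6397 ± 129 CPM) below it, which lie on other chromosomes. The levels of Mir92-1, Mir15a, Mir151 and Mir30a lay within 1 SD of Mir431. The most abundant locus of the libraries, Mir335, had a mean level 12.2 times that of Mir431.

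Mir127, opposite Rtl1 at chr12:109592846-109592915, followed with 9459 and 11241 counts, or 4871 and 4846 CPM. Its pools differed by less than their counting intervals, and it held place 50 of all loci in each of them. Mir433, between Mir431 and Mir127 at chr12:109591715-109591838, had 3523 and 3563 counts, or 1814 and 1536 CPM. Mir434, the last of the 10 along the chromosome at chr12:109594506-109594599, had 2265 and 2828 counts, or 1166 and 1219 CPM. Along the chromosome the levels of Mir431, Mir433, Mir127 and Mir434 thus ran high, lower, high and lower again. Mir431 exceeded its neighbour Mir433 by a log2 difference in CPM of 1.84 in replicate 1 and 2.35 in replicate 2. Mir127 exceeded Mir433 by a log2 difference of 1.42 and 1.66.

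**Figure D1:**
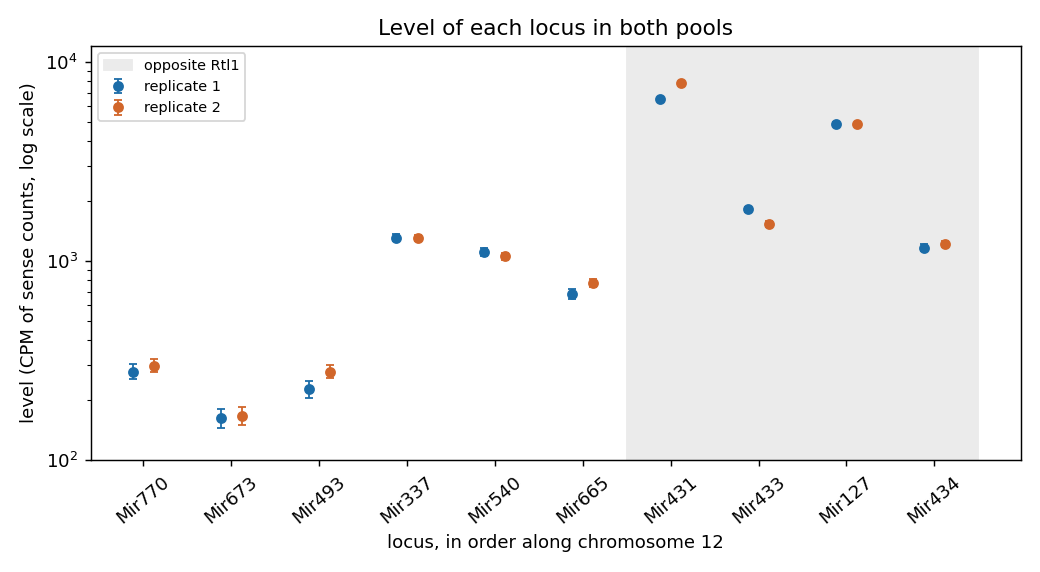
Level of each of the 10 loci in CPM of sense counts (log scale) in replicate 1 and replicate 2, in order along chromosome 12, with 95% counting intervals as bars. Mir431 and Mir127, in the shaded stretch opposite Rtl1, lie highest, at 6483 and 7823 CPM and at 4871 and 4846 CPM, and Mir673 lies lowest at 163 and 167 CPM.

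Between Meg3 and Rtl1, Mir337, Mir540 and Mir665 lie close together, with gaps of 194 and 167 bases in GENCODE M21. The annotation places Mir3544 on the other strand within Mir337 and no other gene over Mir540 or Mir665. The identifiers of Mir337, Mir540 and Mir127 have another version in M21 than in the tables, so their positions, these gaps and their levels per base of hairpin may not match the models that were counted. Mir337 (chr12:109585789-109585885) had 2544 and 3025 counts, or 1310 and 1304 CPM. Mir540 (chr12:109586080-109586146) had 2153 and 2454 counts, or 1109 and 1058 CPM. Mir665 (chr12:109586314-109586407) had 1325 and 1801 counts, or 682 and 776 CPM. In both pools the levels were in descending order along the chromosome, from Mir337 to Mir540 to Mir665. Mir337 exceeded Mir540 by a log2 difference in CPM of 0.27 ± 0.04 (SD, n = 2), and Mir540 exceeded Mir665 by 0.57 ± 0.18.

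The 3 loci nearest to Meg3 were the lowest. Mir770 (chr12:109563692-109563785) lies within Meg3 on the same strand. Of the 4 Meg3 transcripts that span it, 1 has an exon there and the others an intron. It had 540 and 691 counts, or 278 and 298 CPM. Mir493 (chr12:109580233-109580315) had 440 and 646 counts, or 227 and 278 CPM. Mir673 (chr12:109571990-109572080), just past the end of Meg3, had 316 and 387 counts, or 163 and 167 CPM. The highest of their levels, 298 CPM, was below the lowest level of the other 7 loci, 682 CPM.

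The order of the 10 loci was the same in both pools: Mir431, Mir127, Mir433, Mir337, Mir434, Mir540, Mir665, Mir770, Mir493 and Mir673. The mean level of Mir431 was 43.4 times that of Mir673. Of the 45 pairs, 43 differed by more than the log2 ratio between pools of either locus, in the same direction in both libraries. The share of such pairs among other loci was not computed, so this count does not set the 10 loci apart. The exceptions among the 45 pairs were neighbours in the order. Mir433 exceeded Mir337 by a log2 difference in CPM of 0.470 in replicate 1 and 0.236 in replicate 2. Only the value in replicate 2 was below the difference of Mir433 between the pools, 0.240. Mir770 exceeded Mir493 by 0.30 and 0.10, no more than the difference of Mir493 between the pools. The pairs Mir337 with Mir434 (log2 difference 0.13 ± 0.05, SD, n = 2) and Mir434 with Mir540 (0.14 ± 0.09) passed this rule by little. Their counting intervals overlapped in 1 library each, those of Mir337 and Mir434 in replicate 2 and those of Mir434 and Mir540 in replicate 1. In 4 of the 45 pairs the mean difference was below 0.34, the SD of a log2 ratio between pools that the common biological coefficient of variation of 16.8%, estimated by edgeR, gives.

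A read from a mature product does not grow with the hairpin, so levels were compared per locus, although hairpins ran from 67 bases at Mir540 to 124 at Mir433. Divided by hairpin length, the mean level of Mir431 was 78.6 CPM per base and that of Mir127 69.4, still the highest of the 10. Mir540 came next at 16.2 CPM per base, before Mir433 and Mir337 at 13.5 each and Mir434 at 12.7. The 4 lowest, Mir665, Mir770, Mir493 and Mir673, kept their order. Loci also differ in how well their products are ligated and amplified, which no value here measures.

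**Figure D2:**
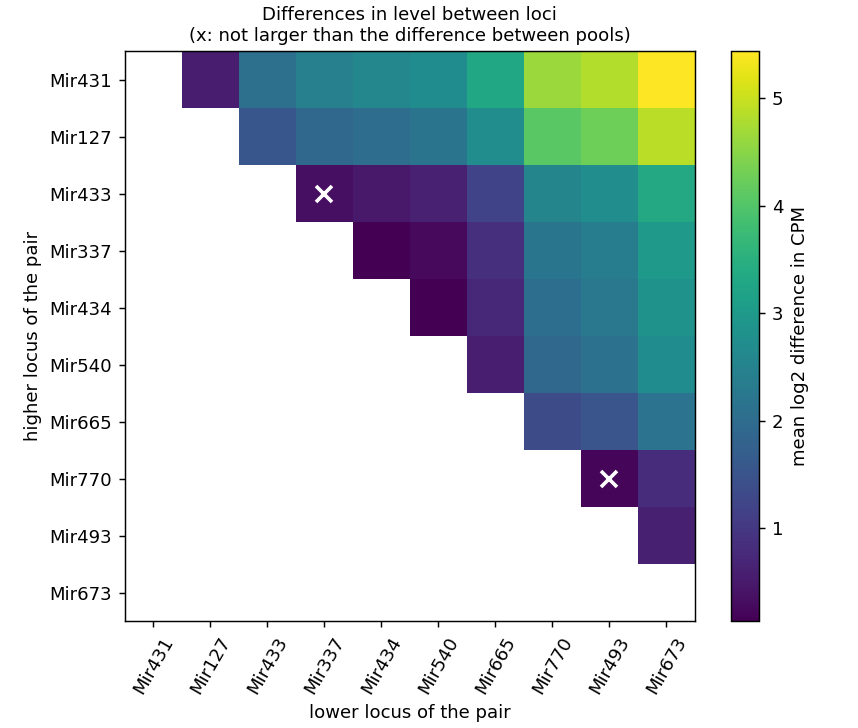
Mean log2 difference in CPM over both pools for each of the 45 pairs of loci, with the higher locus in rows and the lower in columns. The largest difference is 5.43, between Mir431 and Mir673. Crosses mark the 2 pairs, Mir433 with Mir337 and Mir770 with Mir493, that failed the rule of exceeding the difference between pools in each library.

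The pools were then compared locus by locus, which sets 2 libraries of 1 group against each other and no condition. Loci entered this comparison when their counts averaged 100 or more over the libraries, as those of all 10 did. None differed by over 2-fold between the pools, against 1.95% of the 257 loci compared in the tables, and none by over 1.5-fold, against 6.23%. The median log2 ratio of replicate 2 over replicate 1 was 0.05 for the 10 loci and 0.01 for all 257. Of the 10, 6 were higher in replicate 2, against 50.6% of all compared loci. Scaled instead to all reads of each library, a setting added after seeing the data, every log2 ratio was lower by 0.26. The median of the 10 was then -0.21, and 2 of them, Mir493 at 0.04 and Mir431 at 0.02, were higher in replicate 2. Ratios below are relative to the sense counts at the loci. The median size of the log2 ratio was 0.08 for the 10 loci and 0.14 for all 257. These sizes were not matched for depth: the 10 loci averaged 351.5 to 15368 counts, and the minimum for the 257 was 100. All 10 ratios were smaller than the SD of 0.34 named above, as were those of 222 of the 257 loci. That SD was estimated from the same 2 libraries with the 10 loci included, so it is not an independent measure of spread. The quartiles of the 257 log2 ratios were -0.11 and 0.17. Mir493, Mir431 and Mir665 lay above these quartiles, Mir433 lay below them, and the rest of the 10 lay between them. Whether the differences that follow exceed the usual variation between pools cannot be decided from 2 pools.

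Counting error alone did not cover 4 of the 10 ratios. Mir493 had a log2 ratio of 0.30 (95% counting interval 0.12 to 0.48), Mir431 of 0.27 (0.24 to 0.30) and Mir665 of 0.19 (0.08 to 0.29), with intervals above 0. Of all loci compared, 30.0% had an interval above 0 and 26.8% one below 0. Mir433 alone among the 10 had an interval below 0, with a log2 ratio of -0.24 (-0.31 to -0.17). On the scale of sense counts Mir431 and Mir433, 1177 bases apart, therefore differed between the pools in opposite directions. Scaled to all reads, their log2 ratios were 0.02 and -0.50. Mir431 held 35.8% of the counts of the 10 loci in replicate 1 and 40.5% in replicate 2, and Mir433 held 10.02% and 7.96%.

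On the scale of sense counts, the higher sum of the 10 loci in replicate 2 rested on the counts of Mir431. With all 10 loci the sum was 18104 and 19304 CPM, a log2 ratio of 0.09. Without Mir431 it was 11621 and 11482 CPM, a log2 ratio of -0.02. Mir127, Mir337, Mir540, Mir434, Mir770 and Mir673 had counting intervals that included 0, with log2 ratios from -0.07 at Mir540 to 0.10 at Mir770. The summed striated muscle and erythroid lists had log2 ratios of 1.24 and 1.17 between the same pools, and the epithelial and neural lists of -0.16 and -0.32. The part of these lists in the differences among the 10 loci was not tested.

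**Figure D3:**
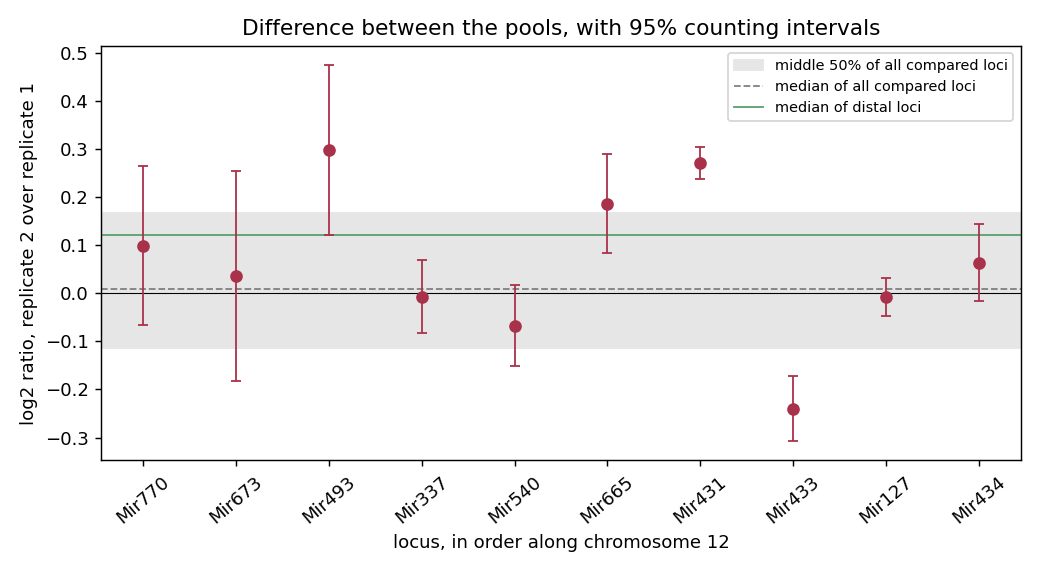
Log2 ratio of replicate 2 over replicate 1, scaled to sense counts (all are lower by 0.26 when scaled to all reads), for each of the 10 loci, in order along chromosome 12, with 95% counting intervals. The grey band holds the middle 50% of the 257 loci compared, the dashed line is their median of 0.01 and the green line the median of 0.12 for the distal loci, and only Mir433, at -0.24, has its whole interval below 0.

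Counts of all microRNA loci between Dlk1 and Dio3 place the 10 loci in their region. There were 59 such loci: the 10, another 10 before the start of Mir379, and 39 from Mir379 on, called distal here. The 10 held 25.3% of the region's sense counts in replicate 1 and 25.6% in replicate 2, or 25.4% ± 0.230 (SD, n = 2). The distal loci held 70.9% in both. With the opposite-strand counts of distal and other loci credited to annotated microRNA genes that overlap there and have no row of their own, the share of the 10 was 20.8% ± 0.155.

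The other 10 loci before Mir379 ranged from 0 counts to levels like those of the 10. Mir3070a and Mir3070b, the only ones that lie among the 10, between Mir665 and Mir431, had 6 and 15 counts and 2 and 0 counts. Mir432, beside Mir434 and opposite Rtl1, and Mir1906-1, inside Meg3, had 0 in both libraries. For reads placed at a single position, a count of 0 allows a level no higher than 1.55 CPM (replicate 1) or 1.29 CPM (replicate 2). Reads placed at several positions are counted apart, so this limit does not hold for a locus with copies. The identifier placed at Mir3071 had 565 and 640 counts, but its version differs from that in the annotation used here and Mir136 lies on the other strand at the same place, so which of them was counted cannot be told. Past Rtl1, Mir341 stood at 1610 and 1448 CPM and Mir370 at 841 and 916 CPM, within the range of the 10. Mir1188 had 30 and 34 counts, Gm23912 had 1 and 0, and Mir882 had 0 in both.

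The mean level had a median of 1138 CPM over the 10 loci and 182 CPM over the 39 distal loci, of which 32 were detected. Over the other 10 loci before Mir379 the median was 2.65 CPM, with 4 detected. All of the 10 were detected, while both other groups include loci at 0. These medians therefore do not compare the whole proximal part with the distal part. The distal median was 326 CPM with the opposite-strand counts credited, a setting chosen after seeing the data. By sense counts the highest distal loci, Mir411 at 9884 and 11091 CPM, Mir487b at 7919 and 8426 CPM and Mir379 at 5346 and 5025 CPM, were of the same order as Mir431 and Mir127. Opposite-strand counts, left out here, were 11913 and 21931 where Mir409 overlaps Gm24321, more than the 10380 and 11658 sense counts of Mir379. Of the 29 distal loci that averaged 100 counts or more, 21 were higher in replicate 2, against 50.6% of all compared loci. The median log2 ratio of these distal loci was 0.12 on the scale of sense counts. Scaled to all reads of each library, every log2 ratio was lower by 0.26. These are descriptions, since 2 pools allow no test of a difference between the groups of loci.

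**Figure D4:**
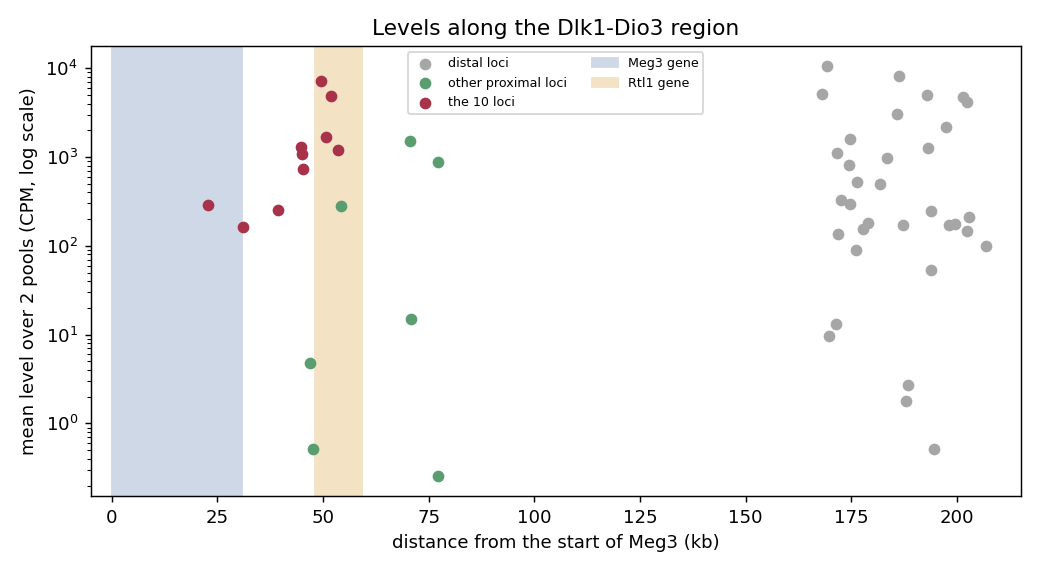
Mean level over both pools (CPM, log scale) of each microRNA locus between Dlk1 and Dio3 against its distance from the start of Meg3 in kb, with the 10 loci in red, other proximal loci in green and distal loci in grey. Mir431 and Mir127 rise above the rest of the proximal loci within the Rtl1 gene; loci at 0 in both pools are not drawn, and Mir1247, beside Dio3 at 13.9 and 14.2 CPM, lies beyond the right edge.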

How the data were processed

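The authors deposited 1 table of raw counts per microRNA gene for each of 2 libraries, derived from alignments to mm10 with GENCODE annotation M4, per the file that accompanies each table. Which aligner and counter made them is not given in the sources used here. The tables hold counts irrespective of strand, on the sense strand and on the opposite strand, and 4 lines for reads that name no gene. These lines were left out of library totals; 22.7% and 20.5% of reads were placed at several positions, and 40.8% and 34.2% were assigned on the sense strand.

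Sense counts were scaled to the total over loci. Symbols and positions (1-based) came from GENCODE M21 on GRCm38, the same assembly as mm10. Of 1973 identifiers 1894 matched, and 7 of the 10 loci had the same version; Mir337, Mir540 and Mir127 did not. Mature and hairpin sequences came from RefSeq. Ratios between pools used loci averaging 100 counts or more, and their counting intervals came from the exact binomial split. A pair of loci was called different when its log2 difference exceeded, in each library, both loci's ratio between pools. With 1 group, edgeR 4.0.16 gave only TMM factors and the dispersion of the 363 loci averaging 10 counts or more; DESeq2 1.42.0 gave size factors. The 2-fold call between pools and the counting intervals of the ratios were tested on simulated counts, and the other steps were not. For the intervals the simulated counts held counting error only, the error that the intervals assume. Python 3.11.15 and scipy 1.17.1 were used. No molecular identifiers are named, so intervals and the limit from 0 (3 counts) cover counting error only.

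All 10 members, the other loci before Mir379, the 3 highest distal loci, the leading locus of each marker list and the loci nearest in level to the most abundant member were named by rule; others were named after their values were seen. The members and lists were chosen with earlier results of these data known.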

Additional observations from a re-analysis of the deposited data

Results flagged for a closer look

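Counts on the opposite strand, which the levels above do not use, were over the limit of 3 counts at 1 of the 10 loci in both libraries, against 1.01% of all loci. Mir337 had 15 opposite-strand counts in replicate 1 and 38 in replicate 2, or 0.586% (95% exact interval 0.328% to 0.965%) and 1.24% (0.879% to 1.70%) of its counts on both strands. The annotation places Mir3544, which has no row in the tables, on that strand within Mir337. Mir540 had 0 and 1 opposite-strand counts, and the other 8 loci had 0 in both libraries.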

How the results depend on the processing

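Of 37 values recomputed for 7 results, 32 moved by less than the set limits. Some of the 32 could not have moved, so this total does not measure robustness. The lower count minimums kept the same 10 loci. Detection in both libraries implies detection at 1 count, in either library and irrespective of strand. For the sum and the share the limit was the SD of the 2 libraries, which leaving out either replicate cannot exceed. The summed level of the 10 loci was 6997 CPM when all reads of a library, with those that name no gene, were the denominator, and the median log2 ratio between pools was then -0.21, with 2 of 10 loci higher in replicate 2. The share of the 10 loci in the region was 20.8% with counts irrespective of strand and 20.8% with opposite-strand counts credited to overlapping genes. The distal median moved from 182 to 326 CPM with the same credit. Leaving out either replicate gave 18104 to 19304 CPM for the summed level, 25.3% to 25.6% for the share and 10 detected loci. The median log2 ratio between pools was 0.05 under TMM, DESeq2 size factors and counts irrespective of strand, with 6 of 10 loci higher in replicate 2 in each. Both lower count minimums repeated the main values, since they kept the same loci. No locus passed 2-fold or 1.5-fold under these settings or with all reads as the denominator; the last and most of the 1.5-fold counts were added after seeing the data. Per base of hairpin, 39 of 45 pairs differed beyond the pools. Ratios and pairs need both libraries, so neither could be left out there. No paired analysis was possible because there is 1 group. Depth limits Mir673 and Mir493 most, with the widest intervals of their ratios.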
